A study of Caenorhabditis elegans and Caenorhabditis briggsae with 26 samples.

Results

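Ribosomal protein genes of the cytosol were followed through the development of 2 nematodes, Caenorhabditis briggsae and Caenorhabditis elegans. The members were given as 60 C. elegans gene IDs of the large (rpl) and small (rps) ribosomal subunit, chosen by name. Of these, 57 were among the 21774 gene IDs analysed, 28 of the large and 29 of the small subunit; rpl-18A, rpl-23 and rps-24 were not analysed here. C. briggsae values, which the deposited file lists by C. elegans gene ID, were present for 56 members, 27 large and 29 small, since rpl-13A had none. C. briggsae values were present for 13938 IDs in all, and no member shared its C. briggsae values with another ID.

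The worms were wild type, strain AF16 for C. briggsae and strain N2 for C. elegans, with no allele or drug, and were kept at 20 °C in liquid medium on a bacterial diet. Mixed embryos were freed from gravid adults with bleach, and some were left to hatch unfed, which stops development at the first larval stage. Food was then added, and animals were taken in C. briggsae after 6 h (L1), 20 h (L2), 28 h (L3), 41 h (L4), 53 h (late L4) and 63 h (young adults, before they carried eggs). C. elegans was sampled at 7, 20, 29, 41, 52 and 57 h. The L1 samples were therefore fed larvae, and all samples were whole embryos or whole animals, so that fewer cells of a type and less RNA per cell cannot be told apart. Each species had 13 libraries of poly(A) RNA. Embryos and L1 larvae had 3 libraries each, A1 and A2 from culture A and B from a separate time course (n = 2 cultures), each later stage had 1 library, and a mixture of stages had 2.

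A ribosome is built from ribosomal RNA and a set of proteins of which each copy of the particle carries nearly every one once, so their genes are usually expressed at similar levels and change together. The small subunit binds messenger RNA and reads the codons, and the large subunit joins the amino acids and passes the new chain through its exit tunnel. Making ribosomes is a large cost for a growing cell. The C. elegans oocyte supplies the embryo with ribosomes, embryos that cannot make their own can still hatch and then arrest as L1 larvae, and feeding of hatched larvae starts growth.

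Levels are given in RPKM, a read count scaled to the length of the transcript and to the mapped reads of the library, so that genes can be compared within a library. Differences are on the scale log2(RPKM + 1), where 1 is a doubling, and were tested with limma across all genes with at least 1 RPKM in 2 or more samples; a gene was called at a Benjamini-Hochberg adjusted p under 0.05. The embryo and L1 labels were checked against markers. The 10 embryo and maternal markers summed to 32.5 to 54.3 RPKM in the 3 C. briggsae L1 libraries, against 4383 to 5499 RPKM in the 3 embryo libraries, and to 28.1 to 42.98 RPKM in C. elegans L1 libraries, against 1005 to 1142 RPKM in embryo libraries. The 6 adult markers were irregular among C. elegans larvae, with 462 RPKM in the L2 library, against 74.5, 5.29 and 2.54 RPKM in L3, L4 and late L4. In C. briggsae, with values for 5 of them, the L2 library had 36.8 RPKM and late L4 63.7 RPKM. Read numbers per library were not used here, so depth is unknown. A library that stood apart was C. elegans embryo A1, in which 56 of 57 members lay above library A2 of the same culture, by a median of 0.87; the changes and species differences that rest on it are given with and without it.

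Ribosomal protein genes were among the most abundant transcripts of both species. The members took 3.03% to 22.4% of the RPKM sum of a C. briggsae library and 6.88% to 23.4% of a C. elegans library. In C. briggsae the share was 21.5% to 22.4% in L1 libraries, against 3.03% to 3.22% in embryo libraries. The C. elegans share was 18.04% to 23.4% in L1 libraries, against 6.88% and 7.22% in embryo libraries A2 and B and 12.6% in embryo library A1. A further share was taken over the 13813 gene pairs whose C. briggsae values were not shared with another ID. There the same 56 members took 21.5% to 22.4% of the sum in C. briggsae L1 libraries, against 19.9% to 25.4% in C. elegans L1 libraries, so the ranges overlapped. In embryos they took 3.03% to 3.23% in C. briggsae, against 7.64% and 8.02% in C. elegans libraries A2 and B and 14.1% in A1, and in L2 larvae 14.6% in C. briggsae, against 19.8% in C. elegans.

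Small-subunit members had slightly higher median levels than large-subunit members. In C. briggsae the median of the large subunit minus that of the small lay between -0.40 and -0.03 and was below 0 in all 13 libraries. The same difference in C. elegans lay between -0.29 and 0.05 and was below 0 in 11 of 13 libraries, the exceptions being L1 libraries A1 and A2. With means in place of medians the difference was 0.28 in C. briggsae (median over libraries) and -0.20 in C. elegans; the C. briggsae mean turned because it holds a pair of small-subunit genes near zero, and without rps-16 and rps-3 it was -0.35. In RPKM the subunit medians of L1 library B were 2546 (large) and 2837 (small) in C. briggsae and 3043 and 3176 in C. elegans. These are descriptions of gene lists, with no test.

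The order of the members differed between the species. By the mean level over 7 stages the highest large-subunit genes of C. briggsae were rpl-5, which carries the smallest ribosomal RNA of the large subunit, rpl-7 and rpl-39, which lines the exit tunnel, and the lowest were rpl-32, rpl-13 and rpl-36. Of its small-subunit genes rps-25, rps-4 and rps-26 were highest and rps-5, rps-3 and rps-16 lowest. The highest large-subunit genes of C. elegans were rpl-39, rpl-10L and rpl-8, which in yeast lies close to the site of peptide bond formation, and the lowest were rpl-22, rpl-30 and rpl-19. Its highest small-subunit genes were rps-25, rps-8 and rps-7, and its lowest were rps-19, rps-15A and rps-13. Spearman's rho between the species was 0.48 over 54 members without rps-16 and rps-3, given as a description, since these values share libraries.

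rps-25, which yeast and human ribosomes need for some internal starts of translation, ranked first in the small subunit of both species. It had 4755, 4856 and 4629 RPKM in C. briggsae L1 libraries A1, A2 and B, against 515, 583 and 594 RPKM in the embryo libraries. In C. elegans it had 4445, 3537 and 4283 RPKM in L1 libraries, against 4780.3, 965 and 1053 RPKM in the embryo libraries. The C. briggsae groups were far apart, while in C. elegans embryo library A1 lay above all 3 L1 libraries.

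rpl-19 was the lowest member of C. elegans in every library. It had 620.1, 527 and 688 RPKM in C. elegans L1 libraries A1, A2 and B, against 267, 186 and 195 RPKM in embryo libraries. In C. briggsae, where other large-subunit genes lay lower, it had 770.0, 761 and 787 RPKM in L1 libraries, against 133, 164 and 177 RPKM in embryo libraries. Over 7 stages its C. briggsae minus C. elegans difference was 0.11 ± 0.17 (limma adjusted p = 0.648), not called.

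**Figure D1:**
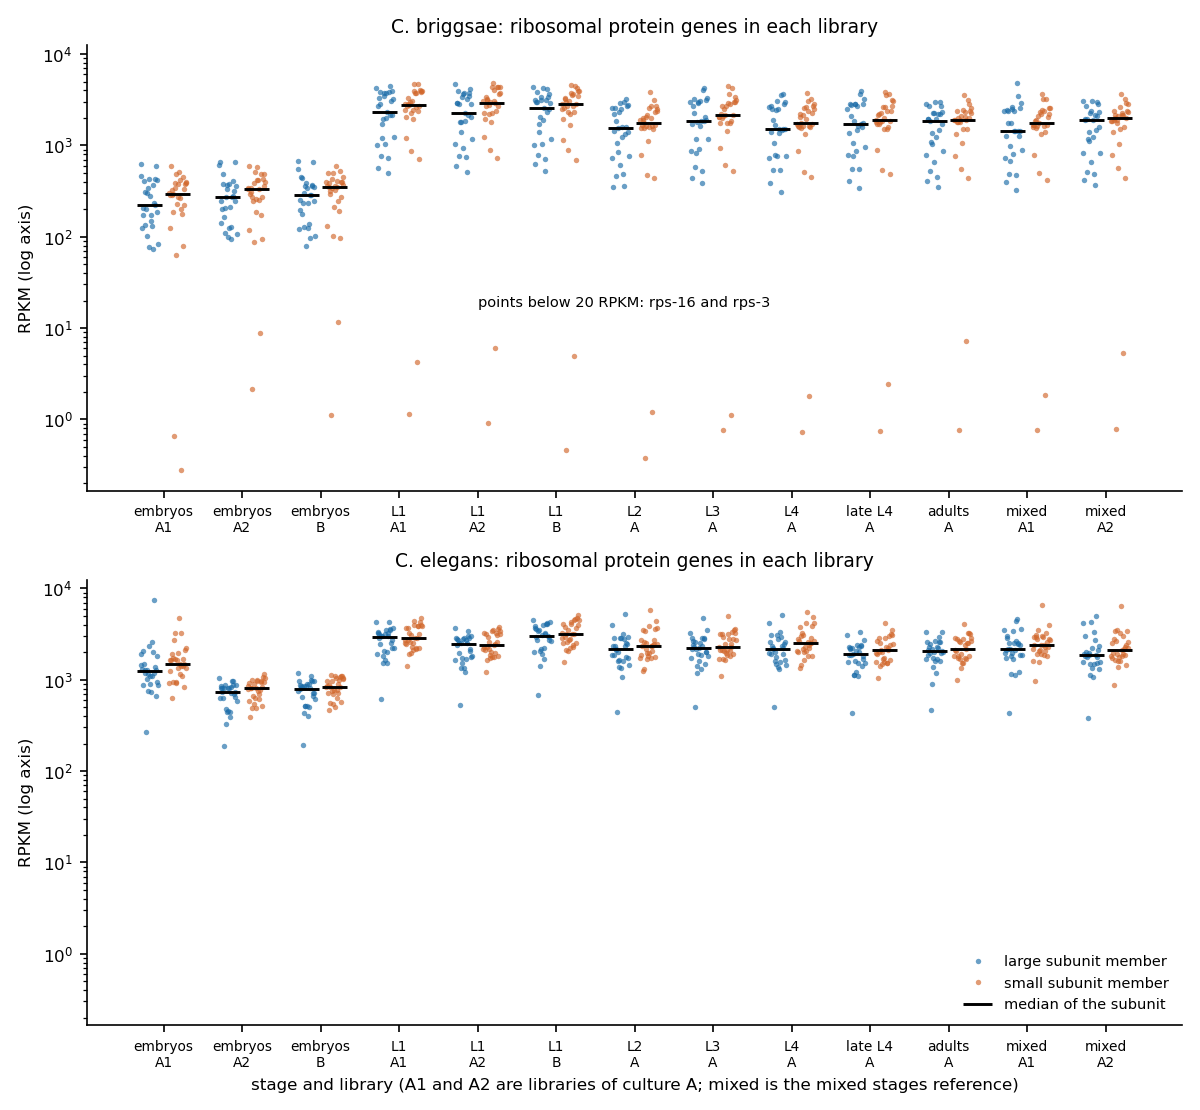
RPKM (log axis) of each large-subunit (blue) and small-subunit (orange) member in each library of C. briggsae (top) and C. elegans (bottom), with black bars at the subunit medians. Most members form a tight band that is lowest in embryos; in C. briggsae rps-16 and rps-3 lie at or below 11.6 RPKM throughout.

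Almost every member was higher in L1 larvae than in embryos of C. briggsae, by a median of 3.18 on the log2 scale, or 9.05-fold. Of 56 members 54 rose and 0 fell, where 41.4% of all 11918 genes tested rose and 32.8% fell, with a median of 0.13 over all genes, so the members stood 3.05 above it. All 27 large-subunit members rose (median 3.18), as did 27 of 29 small-subunit members (median 3.18), and the middle of the members spanned 2.92 to 3.42 (quartiles). In all 3 L1 libraries 54 members lay above all 3 embryo libraries, which held for 43.7% of 12338 genes. The median was 3.25 in culture A and 3.10 in culture B. Under quantile normalization, which forces every library to one distribution, the median was 2.33, 2.48 above that of all genes, with 52 members higher and 2 lower. That scaling turned the split over all genes to 3903 higher and 4706 lower, where the values as deposited gave 4929 and 3912.

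The largest differences of the large subunit were those of rpl-15 (K11H12.2) and rpl-30 (Y106G6H.3). rpl-15 had 3327, 2913 and 2964 RPKM in L1 libraries A1, A2 and B, against 206, 199.7 and 198 RPKM in embryo libraries. By culture that was 3042 ± 110.2 RPKM in L1 larvae and 200.2 ± 3.7 RPKM in embryos (SD, n = 2), a log2 difference of 3.92 ± 0.11 (SE; limma adjusted p = 9.41e-05). rpl-30, whose protein in yeast restrains the splicing of its own transcript, had 1979, 1863 and 1913 RPKM in L1 larvae, against 147, 123 and 124 RPKM in embryos, a difference of 3.88 ± 0.12. rpl-14 followed with 3.69 ± 0.15 and rpl-9 with 3.59 ± 0.13.

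In the small subunit the largest difference was that of rps-3A (F56F3.5), which had 2378, 2361 and 2338 RPKM in L1 libraries, against 177, 172 and 191 RPKM in embryo libraries. Its log2 difference was 3.68 ± 0.12 (limma adjusted p = 9.41e-05). rps-28 (Y41D4B.5), whose protein lies beside the path by which messenger RNA leaves the ribosome, and rps-15A both had 3.53, and rps-7 had 3.43. In each of these genes the L1 and embryo libraries did not overlap.

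A few C. briggsae members moved less. rpl-12 (JC8.3), whose protein sits at the base of the stalk that recruits elongation factors, had 1014, 1036 and 999 RPKM in L1 libraries, against 628, 666 and 667 RPKM in embryo libraries. Its embryo level was the highest of any member in all 3 libraries, and it rose by 0.62 ± 0.11 (limma adjusted p = 0.00416). Under quantile normalization it was -0.65 (limma adjusted p = 0.00586), and without either L1 culture it was not called.

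rps-12, rpl-13 and rpl-19 also rose less than the rest, by 1.87 ± 0.14, 2.25 ± 0.13 and 2.25 ± 0.14, ahead of rps-18 at 2.47 ± 0.12. rps-12 had 2059, 1946 and 1964 RPKM in L1 libraries, against 600.3, 590.1 and 493 RPKM in embryo libraries, so it stood above the median member in embryos and below it in L1 larvae. rps-16 and rps-3 were not called, at -0.36 ± 0.23 (limma adjusted p = 0.203) and -0.16 ± 0.62 (adjusted p = 0.824). Without embryo library A1, in which it was lowest, rps-3 was called lower at -0.90. Both were near zero in C. briggsae at every stage and are described further on.

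In C. elegans all 57 members were higher in L1 larvae than in embryos, by a median of 1.67, or 3.19-fold. Of the 15292 genes tested 28.3% rose and 42.5% fell, with a median of -0.33, so the members stood 2.00 above it. The large subunit had a median of 1.71 (28 of 28 rose) and the small subunit 1.64 (29 of 29), and the quartiles were 1.54 and 1.78. The median was 1.38 in culture A and 1.97 in culture B. Without embryo library A1 all 57 still rose, with a median of 1.91; under quantile normalization 31 rose with a median of 0.55, which is 0.62 above that of all genes, and without embryo culture B 46 rose. Median-ratio scaling kept all 57 calls and turned the split over all genes to 5831 higher and 5305 lower, where the values as deposited gave 4322 and 6505.

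The largest C. elegans changes were rpl-13A and rps-3A at 1.97, rpl-6 (R151.3) at 1.96 and rpl-3, whose protein reaches the site of peptide bond formation, at 1.94. rpl-6 had 2540.1, 2041 and 3014 RPKM in L1 libraries A1, A2 and B, against 664, 706 and 661 RPKM in embryo libraries (1.96 ± 0.28, limma adjusted p = 0.00057). rps-3A had 3852, 3218 and 4522 RPKM in L1 larvae, against 1111, 969 and 1002 RPKM in embryos (1.97 ± 0.29, adjusted p = 0.000706). rpl-13A, which has no C. briggsae value, had 3264, 2777 and 3828 RPKM in L1 larvae, against 885, 816 and 880.5 RPKM in embryos. rps-6, whose protein is phosphorylated in growing cells of many animals, rps-7, rpl-4 and rpsa-1 lay between 1.86 and 1.89. In rpl-6, rps-3A and rpl-13A embryo library A1 lay close to A2 and B, and rpl-6 was the only member that was not higher in embryo library A1 than in A2.

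The smallest C. elegans changes were rps-28 at 1.12, rpl-12 at 1.17, rpl-39 and rps-16 at 1.20 and rps-17 at 1.22, ahead of rpl-32 at 1.41 and rpl-22 and rps-20 at 1.42. rps-28 had 2226, 1941 and 2284 RPKM in L1 larvae, against 3263, 611 and 713 RPKM in embryos (1.12 ± 0.37, limma adjusted p = 0.0281). rpl-39 (C26F1.9) had 4276, 3439.5 and 4069.6 RPKM in L1 larvae, against 7445, 979 and 1097 RPKM in embryos (1.20 ± 0.45, adjusted p = 0.0444, and 0.0742 with the culture as a block). For both, embryo library A1 lay above every L1 library and libraries A2 and B far below. Without embryo library A1 the change was 1.72 in rps-28, 1.93 in rpl-39 and 1.79 in rps-17, and the smallest changes were then those of rpl-12 at 1.47 and rps-16 at 1.56. Without embryo culture B, which leaves libraries A1 and A2, rps-28 was 0.62, rpl-39 0.55 and rps-17 0.73, none of them called (limma adjusted p from 0.184 to 0.346). In all 3 L1 libraries 53 of 57 members lay above all 3 embryo libraries, which held for 31.6% of 15746 genes, and the exceptions were rpl-39, rps-25, rps-17 and rps-28.

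**Figure D2:**
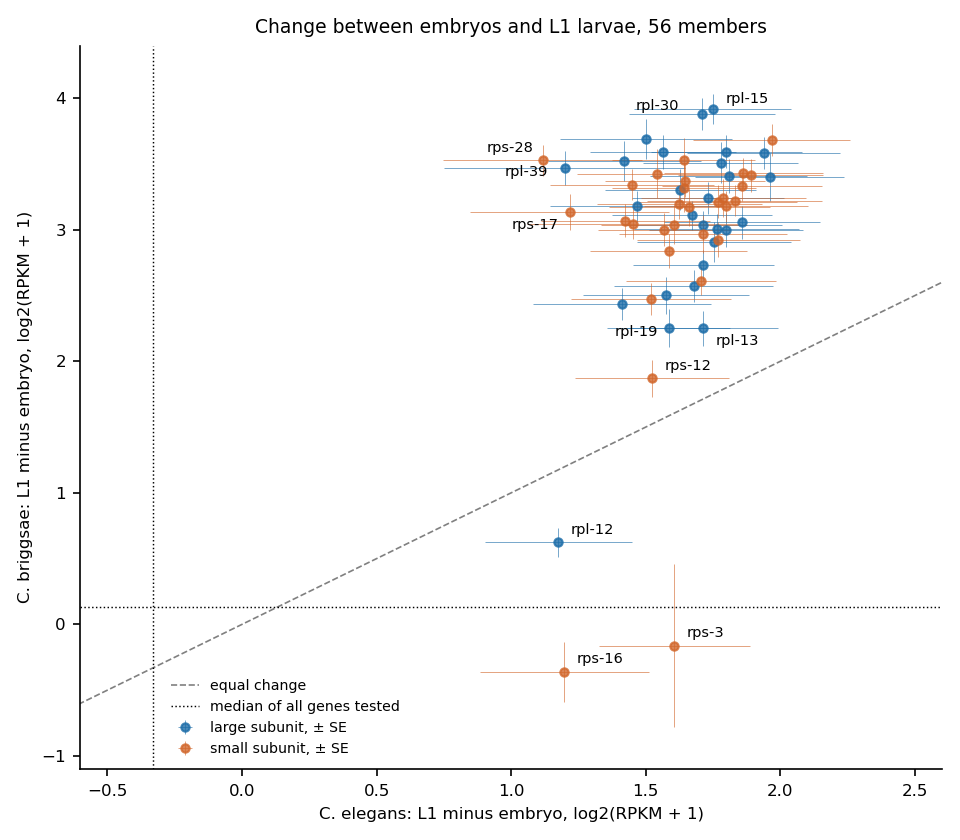
L1 minus embryo difference in log2(RPKM + 1) with its standard error for the 56 members present in both species, C. briggsae (vertical) against C. elegans (horizontal); the dashed line marks equal change and dotted lines the medians of all genes tested. Most members lie near 3.18 in C. briggsae and 1.67 in C. elegans, while rpl-12, rps-3 and rps-16 lie below the line of equal change.

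In C. elegans embryos the difference between libraries A1 and A2 went with transcript length. The difference ran from -0.09 in rpl-6 to 2.93 in rpl-39, which with 236 exon bases is the shortest member in the annotation, and 21 of 57 members were more than 2-fold higher in A1. Spearman's rho with exon bases was -0.61 over the members, as a description. Other genes under 500 exon bases were also higher in A1, by a median of 0.59 over 696 genes. All 12605 genes outside the members with at least 1 RPKM in both libraries, these short ones included, had a median of -0.32. Between libraries A2 and B of C. elegans embryos the members differed by a median of -0.11, with a rho of 0.06. A length relation was not particular to A1: between the C. elegans L1 libraries rho was -0.57 for A2 minus B and -0.59 for A1 minus B, where the members differed by -0.60 to 0.08, and 0.21 for A1 minus A2.

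The same length relation appears in the change itself. Over 57 members Spearman's rho between exon bases and the C. elegans L1 minus embryo change was 0.60, and it was 0.24 without embryo library A1. In C. briggsae it was -0.03 over 54 members without rps-16 and rps-3. The SD of the C. elegans change over members was 0.20, and 0.13 without library A1, so the members became more alike when that library was left out.

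**Figure D3:**
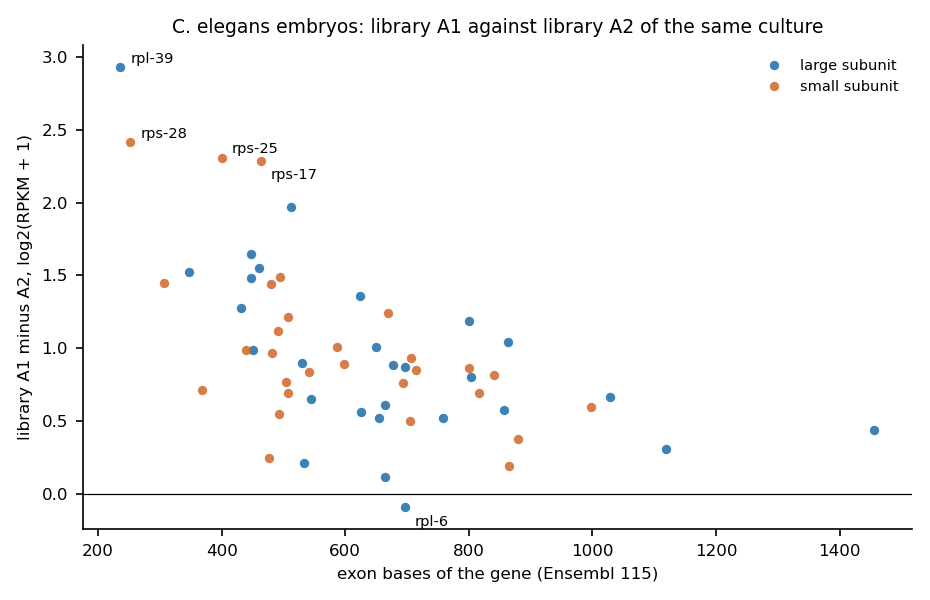
Difference between C. elegans embryo libraries A1 and A2 in log2(RPKM + 1) against exon bases of the gene (Ensembl 115) for the 57 members, blue for the large and orange for the small subunit. The shortest genes, rpl-39 and rps-28, differ most, and rpl-6 lies just below 0.

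The difference between the species in this change was itself tested. The L1 minus embryo change was larger in C. briggsae for 50 of 56 members and smaller for 1, where 32.8% of 12618 genes had a larger and 17.2% a smaller change; the median was 1.47 over members and 0.29 over all genes. The large-subunit median was 1.44 (24 of 27 called larger) and the small-subunit median 1.48 (26 of 29). Without C. elegans embryo library A1 49 members were called larger and 3 (rps-16, rpl-12 and rps-3) smaller, with a median of 1.26. Over all genes that fit called 4494 of 12628 larger and 2242 smaller. Leaving out 1 culture at a time gave 40 to 50 larger calls. With the culture as a block 43 were larger and 2 smaller: rpl-7, rpl-18, rpl-24, rpl-32, rpl-36, rps-2 and rps-18 were no longer called (limma adjusted p from 0.0524 to 0.133), and rps-3 was called smaller (adjusted p = 0.041). Quantile normalization turned the split over all genes to 2725 larger and 3190 smaller, where the values as deposited gave 4139 and 2164, and 50 members were larger under it too.

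The widest gaps were those of rps-28 at 2.41 ± 0.43 (limma adjusted p = 0.00289) and rpl-39 at 2.27 ± 0.53 (adjusted p = 0.00915), both with the high C. elegans library A1. Without that library they were 1.81 and 1.54, and the widest gaps were those of rpl-15 and rpl-30, at 1.95 each. rpl-14, rpl-15 and rpl-30 had gaps of 2.19, 2.17 and 2.17, and rps-17, rps-15 and rps-15A of 1.92, 1.90 and 1.89. rps-16 was the member with a smaller change in C. briggsae, at -1.56 ± 0.34 (limma adjusted p = 0.00657). Its C. briggsae values ran from 0.382 to 2.18 RPKM, near the floor of the scale, where the added 1 narrows any change. Not called were rpl-12 at -0.55 ± 0.27, rpl-13 at 0.54 ± 0.25, rpl-19 at 0.67 ± 0.25, rps-12 at 0.35 ± 0.31 and rps-3 at -1.77 ± 0.69.

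Most of the gap lay in the embryos. The median member stood at 2703 to 2783 RPKM in C. briggsae L1 libraries and at 2427 to 3141 RPKM in C. elegans L1 libraries. In embryos it stood at 284 to 333 RPKM in C. briggsae, and at 802 and 837 RPKM in C. elegans libraries A2 and B and 1342 RPKM in A1. The embryo samples of the species also differed in markers. The 10 embryo and maternal markers summed to 4383 to 5499 RPKM in C. briggsae embryos and 1005 to 1142 RPKM in C. elegans embryos, and the intestine markers to 5.09 to 12.7 RPKM in C. briggsae embryos (4 genes with values) and 119 to 183 RPKM in C. elegans embryos (5 genes). The part of this marker difference in the gap was not tested.

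After the L1 stage no step between neighbouring stages was called for any member, in a fit that called few genes of any kind. A linear model with terms for the species and the stage, fitted to the 14 values of culture A, called 0 members in any of the 5 steps between neighbouring larval stages and adults. It called 0 of 12963 genes (0% higher and 0% lower) in each of the first 4 steps, with 576 genes at an unadjusted p under 0.05 for L2 against L1. For young adults against late L4 it called 6.59% of genes higher and 1.68% lower. No member had an unadjusted p under 0.05 in any step, and standard errors of single members ran from 0.30 to 0.72. A member difference as large as -0.82 (L2 minus L1) was not called, so the 0 calls do not show that levels held steady. The member medians were -0.40 (L2 minus L1), 0.15, -0.08, -0.10 and -0.02 (young adult minus late L4), against -0.21, -0.07, 0.08, -0.11 and -0.11 for all genes.

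Within a species each step rests on 1 library per stage and is given as values. In C. briggsae all 56 members lay lower in L2 than in L1 culture A, with a median of -0.62, where 29.5% of genes lay higher. From L2 to L3 54 of 56 lay higher (median 0.32), where 50.8% of genes lay higher. From L3 to L4 50 lay lower (-0.23), where 55.6% of genes lay higher. From L4 to late L4 46 lay higher (0.09), where 42.4% of genes lay higher. In C. elegans the medians of these 4 steps were -0.17, 0.03, 0.05 and -0.25. There 49 of 57 members lay lower in late L4 than in L4, where 39.7% of genes lay higher and the median of all genes was -0.09. The median step from late L4 to young adults was -0.10 in C. briggsae and 0.10 in C. elegans.

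In culture A more of the members shared 1 stage of highest value in C. briggsae. L1 was the highest of 7 stages for 50 of 56 C. briggsae members, L3 for 4, embryos for 1 and young adults for 1. In C. elegans L1 was highest for 24 of 57 members, L4 for 19, L3 for 8, L2 for 4 and young adults for 2. Embryos were the lowest stage of all 57 C. elegans members and of 54 of 56 C. briggsae members, the others being rps-16 and rps-3. These counts use culture A alone, follow from the differences above and carry no test of their own. They were not made over all genes, so they do not show a trait particular to the members. In culture A 41.4% of 8425 C. briggsae genes and 42.5% of 10874 C. elegans genes lay higher in L1 than in embryos. C. elegans L1 library B, left out of the stage counts, had a median member of 3141 RPKM. The median was 2870 and 2427 RPKM in L1 libraries A1 and A2 and 2326 RPKM in L4.

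**Figure D4:**
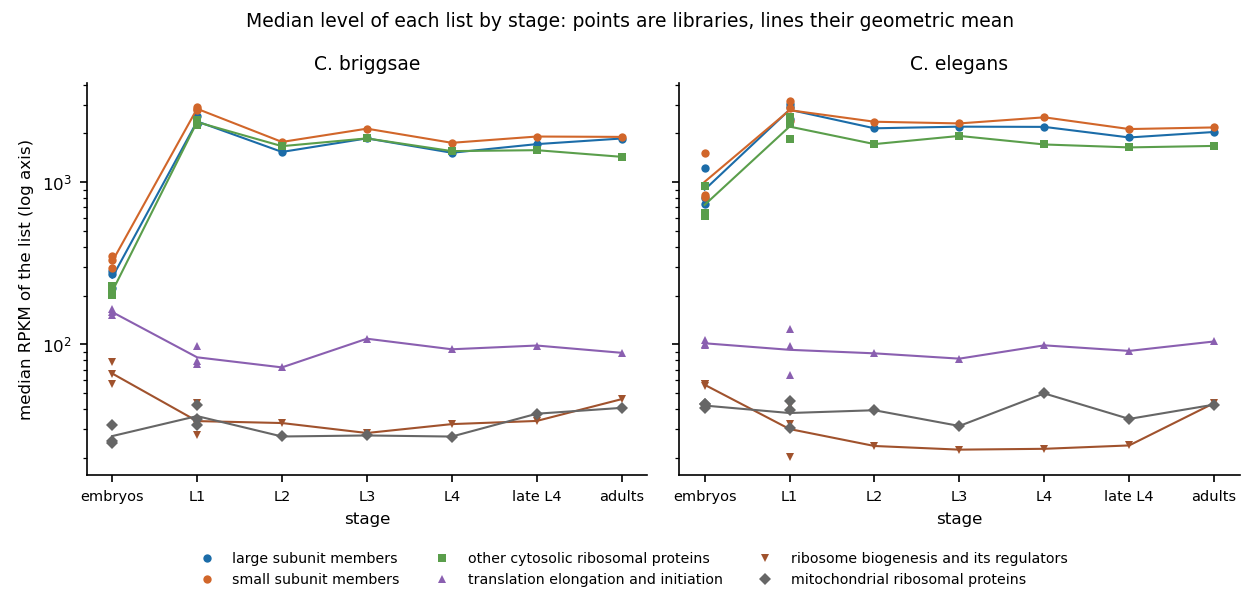
Median RPKM (log axis) of each gene list in 7 stages of C. briggsae (left) and C. elegans (right); points are libraries and lines join geometric means. Both subunits and the other cytosolic ribosomal proteins share a low point in embryos and a high one in L1, a shape the other lists do not have.

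The spread over members within a library was smaller in C. elegans than in C. briggsae. The SD of log2(RPKM + 1) over members within a library was 1.32 to 2.05 in C. briggsae and 0.47 to 0.75 in C. elegans. Without rps-16 and rps-3 the C. briggsae SD was 0.77 to 0.89. The SD of large-subunit members was 0.84 to 1.01 in C. briggsae and 0.55 to 0.82 in C. elegans, and that of small-subunit members, without rps-16 and rps-3, was 0.66 to 0.76 in C. briggsae and 0.37 to 0.65 in C. elegans. With rps-16 and rps-3 the small-subunit SD of C. briggsae was 1.65 to 2.70. Small-subunit levels were thus the more even in C. elegans, and in C. briggsae only once these genes, left out for their low values, were removed.

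To see which members left the common course, each was set against the median of the members in the same library. In C. briggsae the residual moved over the 7 stages by a median of 0.50 per member, and most in rps-3 (3.54), rps-16 (3.42), rpl-12 (2.57), rps-12 (1.53), rpl-15 (1.21) and rpl-13 (1.11). All of these but rpl-15 stood highest against the other members in embryos. In C. briggsae rps-16 and rps-3 stayed at or below 11.6 RPKM, so their residuals also hold the rise of the median member. The C. elegans median was 0.41, with rpl-39 (0.91), rps-28 (0.83) and rps-17 (0.81) in front, again highest in embryos, where culture A includes library A1, followed by rps-25 (0.74), rpl-22 (0.71) and rpl-9 (0.62). Without library A1, an alternative chosen after seeing the data, rps-25 (1.06), rpl-39 (0.88) and rpl-22 (0.77) led, highest in L2 or L4 larvae, and rps-28 moved by 0.32. From L1 to young adults the median residual movement was 0.36 in C. briggsae and 0.34 in C. elegans.

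rps-16 was the only member below 10 RPKM in all 13 C. briggsae libraries. Its protein reaches the transfer RNA that holds the growing chain, as known from bacteria and yeast. The C. elegans gene T01C3.6 lies on chromosome V (V:15000018-15000541, minus strand, Ensembl 115, WBcel235). Its C. briggsae values were 0.66, 2.18 and 1.12 RPKM in embryo libraries A1, A2 and B and 1.14, 0.921 and 0.459 RPKM in L1 libraries. From L2 to young adults it stood at 0.382, 0.773, 0.733, 0.751 and 0.762 RPKM. The same ID had 2734, 1005 and 1126 RPKM in embryos, 2928 to 3266 RPKM in L1 larvae and 2549.5 to 3397 RPKM later, in C. elegans, so the libraries of the species do not overlap.

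rps-3, chosen for this account after its values were seen, was nearly as low. Its protein lines the channel by which messenger RNA enters the small subunit. The C. elegans gene C23G10.3 lies on chromosome III (III:6206803-6207965, plus strand, same annotation). In C. briggsae it had 0.276, 8.80 and 11.6 RPKM in embryo libraries A1, A2 and B, 4.20, 6.03 and 4.90 RPKM in L1 libraries, and 1.20, 1.11, 1.83, 2.44 and 7.16 RPKM from L2 to young adults. Libraries A1 and A2 of the same embryo culture thus lay far apart for this gene. Its C. elegans values were 765 to 1396 RPKM in embryos, 2444 to 3199 RPKM in L1 larvae and 2127 to 2393 RPKM later. rps-3 lay outside the limit of 10 RPKM in 1 library, embryo B, and rps-16 inside it in every library.

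The next lowest C. briggsae members were well above this pair. rpl-36 had 310.3 to 521 RPKM in L1 larvae and later stages, against 74.3 to 96.3 RPKM in embryos, and rpl-13 had 347.9 to 627 RPKM, against 120.1 to 141 RPKM in embryos. The sources used here do not give how C. briggsae genes were paired with C. elegans IDs or which gene models set their lengths. Whether the near-zero values come from the RNA, the gene model or the pairing was not tested.

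Over 7 stages 14 of 56 members stood lower in C. briggsae than in C. elegans and 0 higher, where 17.6% of 12963 genes were lower and 15.3% higher; median-ratio scaling gave 2508 genes higher and 1855 lower in place of 1986 and 2279. This fit used culture A alone, with its stages as the replicates, so its p-values do not measure the spread between cultures. The member median was -0.44 and that of all genes -0.04. Without the embryo stage 16 members were lower and 7 higher, where 2593 of 12675 genes were lower and 2418 higher. The member median was then -0.20 and that of all genes -0.01, so the shift was smaller when embryos were left out. The 14 were 8 large-subunit genes (rpl-36, rpl-13, rpl-32, rpl-28, rpl-9, rpl-21, rpl-12 and rpl-4) and 6 small-subunit genes (rps-16, rps-3, rps-5, rps-11, rps-19 and rps-3A).

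The size of these differences fell into steps. rps-16 (-10.57 ± 0.20, limma adjusted p = 6.22e-09) and rps-3 (-9.17 ± 0.28, adjusted p = 2.03e-07) stood by themselves. rpl-36 (-2.90 ± 0.21), rpl-13 (-2.67 ± 0.16), rps-5 (-2.55 ± 0.22) and rpl-32 (-2.52 ± 0.22) followed, then rps-11 at -1.93 ± 0.25 and rps-19 at -1.78 ± 0.27. The other 6 lay between -1.15 and -0.86, and rps-3A, at -0.87 (limma adjusted p = 0.0449), was not called in most alternative fits.

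The middle step was seen in L1 larvae, and for rps-5 also in embryos. rps-5, whose protein lies where messenger RNA leaves the small subunit, had 693 to 719.7 RPKM in C. briggsae L1 libraries, against 2609 to 3693 RPKM in C. elegans L1 libraries, and 80.1 to 96.5 RPKM in C. briggsae embryos, against 837 to 1425 RPKM in C. elegans embryos. rpl-32 had 715 to 743 RPKM in C. briggsae L1 libraries, against 2701 to 3234 RPKM in C. elegans, and rpl-13 568 to 627 RPKM, against 2834 to 3655 RPKM. The L1 ranges of the species do not overlap for any of the 3. These genes were named for a large species difference in a fit that holds the culture A libraries, so this adds no further support. These genes still rose between embryos and L1 larvae of C. briggsae, rps-5 by 2.92, rpl-32 by 2.44, rpl-13 by 2.25 and rpl-36 by 2.50.

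Members with the highest values in C. briggsae relative to C. elegans were rps-13 at 0.66 ± 0.25 (limma adjusted p = 0.0671), rpl-26 at 0.37 ± 0.27 and rps-2 at 0.32 ± 0.22. None of them was called with all 7 stages and the values as deposited. Each was among the 7 members called higher in C. briggsae when the embryo stage was left out, where 2418 of 12675 genes were called higher. Either rescaling of the libraries, quantile or median-ratio, also brought rps-13 to a call of higher. rps-13 had 2592 to 2699.9 RPKM in C. briggsae L1 libraries, against 1224 to 1545 RPKM in C. elegans L1 libraries, but 295 to 350.2 RPKM in C. briggsae embryos, against 391 to 632 RPKM in C. elegans embryos. The species order for this gene was thus opposite in the embryo and L1 stages. Gene length and mapping differ between the species, so a difference in level cannot be told apart from one in the gene model.

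**Figure D5:**
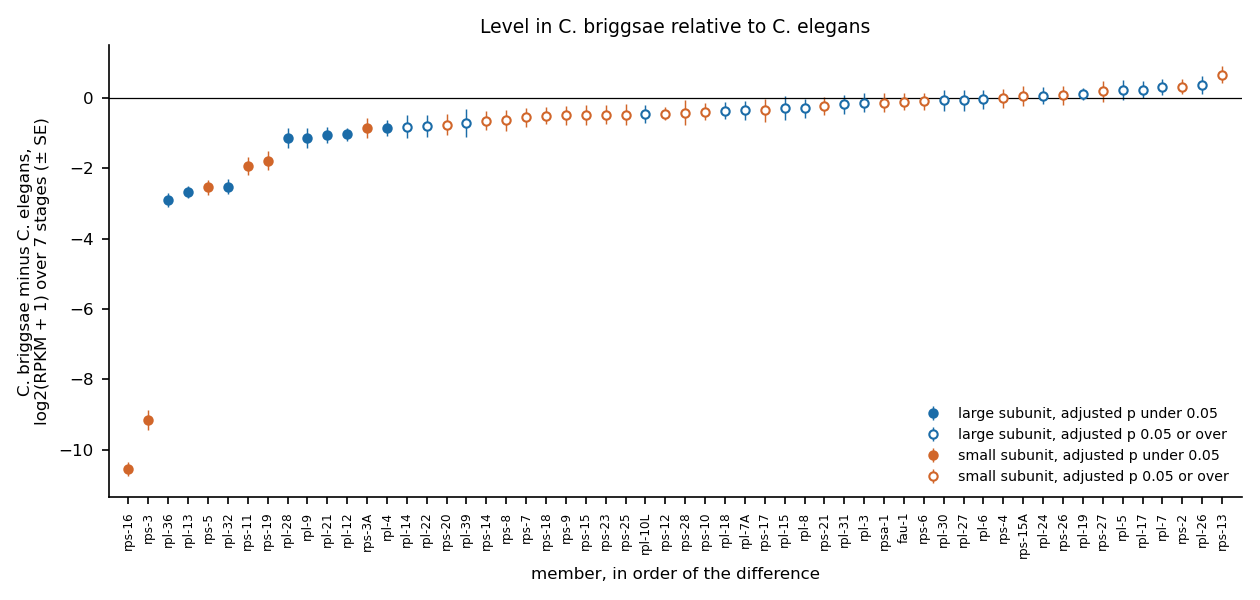
C. briggsae minus C. elegans difference in log2(RPKM + 1) over 7 stages with its standard error for 56 members in order of size; filled points have a limma adjusted p under 0.05, blue for the large and orange for the small subunit. rps-16 and rps-3 lie near -10.57 and -9.17, a step of 4 genes lies between -2.90 and -2.52, and the rest lie within about 2 of 0.

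Cytosolic ribosomal proteins outside the 60 members followed the same course. In C. briggsae 18 of 20 rose between embryos and L1 larvae and 0 fell (median 3.09), where 41.4% of all genes tested rose and 32.8% fell. In C. elegans 19 of 22 rose and 0 fell (median 1.48), where 28.3% of all genes tested rose and 42.5% fell. rpl-23A.1 rose by 4.08 in C. briggsae, and rpl-10a by 1.95 and rps-27A, made as a fusion to ubiquitin, by 1.89 in C. elegans. Both exceptions of C. briggsae were also exceptions in C. elegans: rpl-11.1, at 0.03 in C. briggsae and -0.17 in C. elegans, and rsl-24D1, at -0.22 and -0.48, which in yeast is known as a factor of large-subunit assembly and not a part of the finished ribosome. The third exception of C. elegans was rpl-29, at 1.01 (limma adjusted p = 0.0628). rpl-11.2, the other copy of rpl-11, was called in both species, at 3.82 in C. briggsae and 1.72 in C. elegans.

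Ribosomal proteins of mitochondria moved far less. Of 65 in C. briggsae 17 rose and 3 fell (median 0.36), where 41.4% of all genes tested rose and 32.8% fell. Of 68 in C. elegans 2 rose and 3 fell (median -0.03), where 28.3% of all genes tested rose and 42.5% fell. mrpl-40 rose by 3.58 in C. briggsae and fell by 0.82 in C. elegans, and mrpl-44 rose by 1.42 in C. briggsae and 0.99 in C. elegans. mrps-14 was at -0.09 in C. briggsae and fell by 0.87 in C. elegans. In median RPKM these genes ranged from 24.7 to 42.5 over the stages of C. briggsae and from 30.4 to 49.9 over those of C. elegans, with no low point in embryos as large as that of the cytosolic genes.

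Translation factors were mixed. In C. briggsae 6 of 29 rose and 10 fell (median -0.10), where 41.4% of all genes tested rose and 32.8% fell. In C. elegans 4 of 30 rose and 5 fell (median 0.16), where 28.3% of all genes tested rose and 42.5% fell. eEF1 gamma (eef-1G), part of the complex that reloads the elongation factor bringing transfer RNA, rose by 1.79 in C. briggsae and 1.61 in C. elegans, and the elongation factor gene eef-2 rose by 1.49 and 1.26. The initiation factor copies iff-2 and iff-1 parted, with iff-2 higher by 3.63 and iff-1 at -4.56 in C. briggsae. iff-1, which is known from the germ line, was at -4.16 in C. elegans, and the cap-binding protein gene ife-4 fell by 2.31 there and was at 0.22 in C. briggsae (not called).

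Genes for making ribosomes fell more often than they rose. Of 22 genes for ribosome biogenesis and its regulation 1 rose and 11 fell in C. briggsae (median -0.51), and 0 rose and 12 fell in C. elegans (median -0.77). All genes tested also fell more often than they rose in C. elegans (42.5% against 28.3%), but not in C. briggsae (32.8% against 41.4%). In C. elegans the RNA polymerase I subunit gene rpoa-12 fell by 1.35 and the nucleolar gene nol-10 fell by 1.24 (limma adjusted p = 0.00302 and 0.003). In C. briggsae fib-1, which encodes the methylating enzyme fibrillarin of the nucleolus, was the exception that rose, by 1.38, and in C. elegans it was at -0.77. These lists share libraries with the members, and their counts are given beside the percentages of all genes tested.

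Some members are neighbours in the C. elegans genome. rps-10 and rpl-24 point away from each other with 609 bases between them (Ensembl 115), and their L1 minus embryo changes were 2.84 and 2.73 in C. briggsae and 1.58 and 1.71 in C. elegans. rps-14 and rpl-36, 662 bases apart, had 3.24 and 2.50 in C. briggsae and 1.79 and 1.57 in C. elegans. rps-21 lies 8530 bases from rpl-36, with 5 analysed genes between, and 9589 bases from rps-14, with 6 between. It had 2.97 in C. briggsae and 1.71 in C. elegans. fau-1, which encodes a ubiquitin-like protein fused to a small-subunit protein, and rpl-39, 498 bases apart, had 3.04 and 3.47 in C. briggsae and 1.60 and 1.20 in C. elegans.

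Other members stand beside genes of the other lists. rpl-30 and the poly(A)-binding protein gene pab-1 point away from each other over 377 bases, and pab-1 had 0.30 in C. briggsae and 0.40 in C. elegans, against 3.88 and 1.71 for rpl-30. rpl-9 and lpd-7, 518 bases apart, had 3.59 and 0.02 in C. briggsae and 1.80 and -0.46 in C. elegans. rps-16 lies 109 bases from fib-1 on the same strand; fib-1 was at 1.38 in C. briggsae, where rps-16 was near zero, and at -0.77 in C. elegans, where rps-16 was at 1.20. rpl-5 lies 8559 bases from iff-2, with 3 analysed genes between, and 4440 bases from the maternal marker puf-5, with 1 between. There iff-2 had 3.63 in C. briggsae and 1.20 in C. elegans, and puf-5 had -4.17 and -4.87, against 3.41 and 1.81 for rpl-5. The order of genes in C. briggsae was not used here.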

How the data were processed

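The authors deposited RPKM values per gene ID, 21774 IDs in 26 poly(A) RNA libraries. The submitters' processing notes name BWA 0.5.7. The sources used here give no genome build, annotation, counting rule or source of the gene pairing, and read numbers were not used, so depth is unknown.

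From these deposited RPKM values, log2(RPKM + 1) was computed. The authors' labels describe A and B as separate time courses, so libraries A1 and A2 were averaged. Genes with at least 1 RPKM in 2 or more values entered limma 3.58.1 (R 4.3.3, eBayes with trend), with Benjamini-Hochberg adjustment over all genes. P-values measure the spread between these cultures. A stage step after L1 used the species as its replicates. Deviations of culture A from B, L1 and embryo, had a Pearson correlation of 0.115 in C. briggsae (7407 genes) and -0.0137 in C. elegans (10652 genes); the labels pair the cultures, so the block is given where it changes a call. The fit was tested on simulated data.

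The members were picked by gene name, and they and the lists were chosen with earlier results of these data known. Named with values were, per L1 and embryo test, the 4 members of each subunit with the largest and the 4 with the smallest change and those not called in the common direction; the 3 highest and 3 lowest per subunit by mean level; members under 10 RPKM in all C. briggsae libraries; the 4 per subunit with the largest species difference and the 4 per species with the largest residual movement; members within 10 kb of one another; and the 2 largest and 2 smallest changes of each other list in C. elegans. Positions and exon bases came from Ensembl 115 (WBcel235). Promoter sequences were not used here, so the planned motif search was not run. Alternatives were other pseudocounts, filters and scalings, single libraries, blocks and omitted cultures.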

Additional observations from a re-analysis of the deposited data

Results flagged for a closer look

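The L1 minus embryo change differed between C. briggsae and C. elegans by limma's interaction test in 51 of 56 members. It was larger in C. briggsae in 50 and smaller in 1, where 32.8% of 12618 genes had a larger and 17.2% a smaller change. The difference of the changes, on the log2(RPKM + 1) scale, was 2.41 in rps-28, 2.27 in rpl-39, 2.19 in rpl-14, 2.17 in rpl-15, 2.17 in rpl-30, 1.92 in rps-17, 1.90 in rps-15 and 1.89 in rps-15A. The smallest called gaps were 0.90 in rpl-7 and 0.91 in rps-2, and rps-16, near zero in C. briggsae, had -1.56. In rps-28, rpl-39 and rps-17 the C. elegans change holds the high embryo library A1, and without it their differences were 1.81, 1.54 and 1.35. Without that library 49 members were larger and 3 smaller, where 4494 of 12628 genes were larger and 2242 smaller.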

How the results depend on the processing

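For the members named by rule in the L1 and embryo tests and the species comparison, 772 alternative values kept their direction and side of the threshold, 51 were weaker, 30 stronger and 11 reversed; the cause was not tested. Quantile normalization left 31 higher C. elegans members (37 without embryo library A1), and gave 0.0396 for the median of young adults minus late L4, -0.063 for rps-16 in C. elegans and -0.65 for rpl-12 in C. briggsae. rps-3 in C. briggsae was 0.13 with pseudocount 0.1, 0.32 with median-ratio scaling and 0.15 with each library a sample. rps-12 in the species comparison was -0.0252 without library A1, with or without the block. Also without A1, it was -0.21 with quantile and -0.18 with median-ratio scaling. With means the large minus small difference in C. briggsae was 0.28, and without rps-16 and rps-3 the median SD over members was 0.84, in place of 1.96. Leaving out 1 library or culture gave medians of -0.26 to 0.0684 (L4 minus L3), -0.31 to 0.12 (late L4 minus L4) and -0.20 to 0.19 (young adult minus late L4), -1.08 to 0.76 for rps-3 in C. briggsae and, by stage, -0.0257 to 0.31 for rps-26 between the species. Pairing the cultures as a replicate block gave 54 higher members in C. briggsae, 56 in C. elegans and 43 with a larger C. briggsae change, and changed no call but those named above. Fits that combine the omission of A1 with a block or scaling were chosen after seeing the data.

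Each species has 2 cultures of embryos and L1 larvae and 1 library per later stage, so the later steps rest on both species together. The RPKM values carry no depth. The sources used here give no C. briggsae gene models or lengths, and a near-zero level of RNA cannot be told apart from a fault of the gene model or the pairing.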
